A study of Mus musculus with 4 samples.

Results

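The MHC class I presentation genes are 10 genes of antigen display, chosen by name: B2m, H2-K1, H2-D1, Tap1, Tap2, Tapbp, Nlrc5, Psmb8, Psmb9 and Psmb10. All 10 were found among the 45232 gene identifiers counted, and all 10 passed the filter on low counts that left 15591 genes for testing. They were read in 4 RNA sequencing libraries of leukemic granulocyte-macrophage progenitors (L-GMPs), which were sorted as CD34+ CD16/32+ cells that were also c-Kit+, Sca-1+, GFP+ and tdTom+. The donors of these cells were mice with leukemia driven by the fusion oncoprotein MLL-AF9, all secondary recipients, sampled when they died. There were 2 mice in the group labelled Scr and 2 in the group labelled miR-99 KD, each with its own library. The labels do not spell out Scr or KD, and they give no strain, age or sex. The labels do not say whether the 4 recipients carried cells of the same first leukemia.

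MHC class I molecules show fragments of a cell's own proteins to CD8 T cells and natural killer cells. Each molecule is a heavy chain, here from H2-K1 or H2-D1, held together with the light chain beta-2 microglobulin from B2m. Peptides are cut by the proteasome, carried into the endoplasmic reticulum by the transporter made of Tap1 and Tap2, and loaded with the help of tapasin, the product of Tapbp. Psmb8, Psmb9 and Psmb10 encode the catalytic subunits of the immunoproteasome, which blood cells often use in place of the constitutive subunits Psmb5, Psmb6 and Psmb7. Nlrc5 is a transactivator that works with RFX, CREB/ATF and NF-Y factors at class I promoters, and interferon gamma induces most of these genes.

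Of the 10 genes, 8 had a promoter window in RefSeq (GRCm38.p6), and the 250 bases before each start were searched on both strands for short motifs. Where a gene had several starts, the window farthest upstream was taken, while the shares over all windows below count every start. The windows of H2-D1, Tap1, Tapbp, Psmb8 and Psmb9 lie wholly within annotated exons, counting exons of any gene. The motifs were the Y box CCAAT, the cyclic AMP response element (CRE) core TGACG, an interferon-response core GAAANNGAA, an NF-kB core GGGATTCCC, a gamma-activated site TTCNNNGAA and the GC box GGGCGG. The windows of B2m and H2-K1 are shown because they hold several of these motifs and lie almost wholly outside annotated exons. Capitals mark the matches, on either strand. The first lies at chr2:122147437-122147685, plus strand, and the second at chr17:34000348-34000597, minus strand.
B2m: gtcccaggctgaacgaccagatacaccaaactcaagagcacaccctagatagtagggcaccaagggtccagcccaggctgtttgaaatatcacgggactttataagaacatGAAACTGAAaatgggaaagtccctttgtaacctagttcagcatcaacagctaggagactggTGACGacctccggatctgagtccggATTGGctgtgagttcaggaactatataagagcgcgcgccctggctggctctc
H2-K1: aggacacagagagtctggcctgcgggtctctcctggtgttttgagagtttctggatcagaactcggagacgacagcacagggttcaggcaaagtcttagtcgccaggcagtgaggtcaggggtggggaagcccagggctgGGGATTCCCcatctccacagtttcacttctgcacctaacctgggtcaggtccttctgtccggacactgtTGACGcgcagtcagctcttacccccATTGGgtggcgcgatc

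In B2m, H2-K1 and H2-D1, a CRE core was followed after exactly 20 bases by the reversed Y box ATTGG. H2-M3, a heavy-chain gene that presents formylated peptides, had the same arrangement. These 30-base sites, of which that of H2-D1 lies within annotated exons, are shown with both elements in capitals. They lie at chr2:122147609-122147638, plus strand (B2m), chr17:34000359-34000388, minus strand (H2-K1), chr17:35262993-35263022, plus strand (H2-D1) and chr17:37270188-37270217, plus strand (H2-M3).
B2m: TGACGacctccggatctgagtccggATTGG
H2-K1: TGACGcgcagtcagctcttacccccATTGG
H2-D1: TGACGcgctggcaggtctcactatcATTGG
H2-M3: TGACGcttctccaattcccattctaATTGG

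Of all 32851 RefSeq windows of this length, 18 (0.0548%) held the pair at this spacing, and these belonged to 15 genes. The spacing was chosen after the letters of these promoters were seen, so this share describes the match and tests nothing. The NF-kB core occurred in H2-K1 and H2-D1 and in 0.301% of all windows. A Y box occurred in 6 of the 8 windows and in 33.8% of all, and a CRE core in 5 of 8 and in 17.8% of all. The interferon-response core was found in B2m alone of the 8, and in 7.13% of all windows. The gamma-activated site was found in Psmb8 alone, and in 7.02% of all windows. The GC box was found in 3 of the 8, against 32.7% of all. The RefSeq starts of Psmb9 and Tap1 face away from each other with 225 bases between them, so their windows hold a Y box, a CRE core and a GC box in common.

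In the GENCODE M21 annotation of GRCm38, 7 of the 10 genes lie on chromosome 17, in the order Tapbp (33915899 to 33929292), H2-K1 (33996017 to 34000347), Psmb9 (34181987 to 34187764), Tap1 (34187553 to 34197225), Psmb8 (34197721 to 34201454), Tap2 (34203527 to 34216321) and H2-D1 (35262730 to 35267499). B2m lies on chromosome 2 at 122147686 to 122153083. Nlrc5 and Psmb10 lie on chromosome 8 at 94434356 to 94527272 and 105935735 to 105938444. Exons of Psmb9 and Tap1 share 212 bases on opposite strands, and exons of Tap2 share 533 bases with the antisense transcript Gm15821. No source used here gives the strand setting of the counting.

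Gene counts summed to between 38458519 and 42674407 per library. Scr 1 stood apart, with 28573 genes detected against 21372 to 24038 in the other libraries, and with 51.9 CPM (counts scaled to the same gene total in each library) on olfactory receptor genes against 4.78 to 15.0. The gate's genes Kit, Cd34 and Fcgr3 lay between 232 and 482 CPM in every library, while Ly6a, which encodes the gate marker Sca-1, had at most 0.191 CPM. The microRNA precursor genes Mir99a, Mir99b and Mir100 had 0 counts in all 4 libraries, which leaves room for 0.0780 CPM at the lowest depth. Mature microRNAs were not followed, so the level of miR-99 was not checked. In whole samples of sorted cells, fewer cells of a type and less RNA per cell cannot be told apart.

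Class I genes were strongly expressed in both groups, and none of the 10 passed the threshold between miR-99 KD and Scr. H2-D1 ranked 90th and B2m 140th by mean CPM among all genes listed, and 9 of the 10 genes had at least 3498 counts in each library. For these 9 genes the 95% Poisson interval was at most 3.33% of the count to either side, covering counting error only. Nlrc5 was the exception, with 86 to 285 counts. The 10 genes together took 0.380% and 0.331% of gene counts of Scr 1 and Scr 2, against 0.354% and 0.357% for miR-99 KD.

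**Figure D1:**
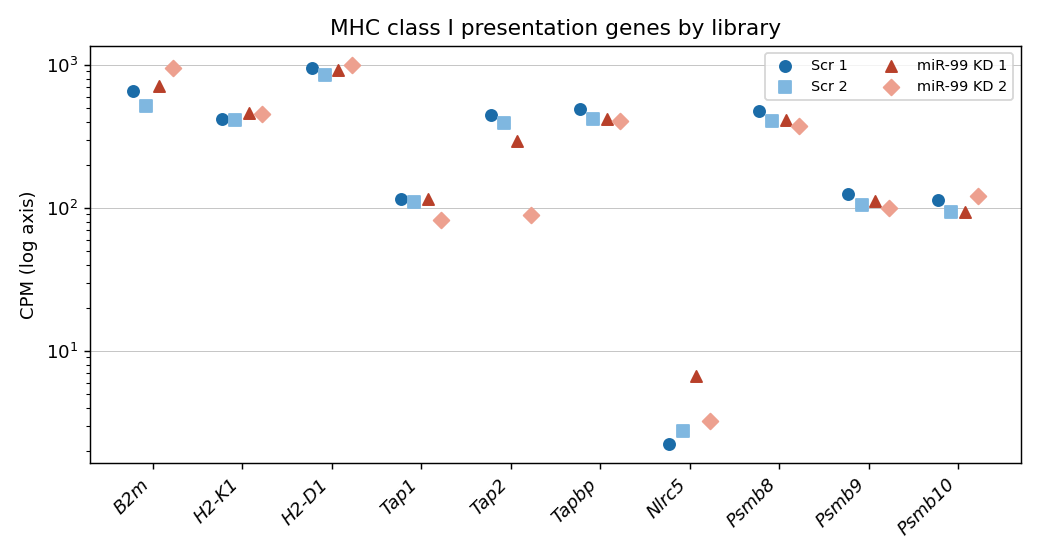
CPM (log axis) of the 10 MHC class I presentation genes, with a point for each of the 4 libraries. Tap2 in miR-99 KD 2 (88.4 CPM) sits far below the other 3 libraries, and Nlrc5 sits below 10 CPM throughout.

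Levels of different genes were compared per length, as CPM per kilobase of annotated exon (RPKM). B2m was highest, with a mean of 821 RPKM over the 4 libraries (603 to 1097), followed by H2-D1 at 362 RPKM (331 to 388) and H2-K1 at 148 RPKM (139 to 156). Next came Psmb8 (123), Tapbp (119) and Tap2 (81.2 RPKM), whose library values overlapped with their neighbours in this order, as those of H2-K1 and Psmb8 also did by a narrow margin. Psmb10 (61.8 RPKM, 54.8 to 71.2) overlapped with Tap2, but not with Psmb9 (30.2 RPKM, 27.5 to 34.1). Tap1 (19.2 RPKM, 15.0 to 21.0) came next. Nlrc5 had 0.438 RPKM (0.263 to 0.786).

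B2m, the light chain shared by all class I molecules, had the smallest p of the group. Its values were 654 and 518 CPM in Scr against 710 and 943 CPM for miR-99 KD. Both miR-99 KD libraries lay above both Scr libraries, with the highest value in miR-99 KD 2. The group means were 586 ± 95.7 CPM (SD, n = 2) and 827 ± 165 CPM. The edgeR log2 fold change was 0.55 ± 0.20 (SE), with an unadjusted p of 0.0420 and an adjusted p of 0.621 over all genes.

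The classical heavy chains were close in level between groups. H2-K1 had 421 and 409 CPM in Scr against 459 and 455 CPM for miR-99 KD. These groups did not overlap, and the libraries of a group lay within a few percent of each other. The fold between groups was 1.14, with a 95% interval from 0.881 to 1.48 in edgeR. H2-D1 had 953 and 854 CPM in Scr against 923 and 1000 CPM for miR-99 KD, with overlapping groups on this scale, although its values scaled with TMM factors did not overlap. The fold was 1.11 (interval 0.858 to 1.42). Both estimates carry some uncertainty, since H2-K1, H2-D1 and the H2-Q genes have close copies and reads that aligned to several places were not counted. Within each library H2-D1 had 2.26, 2.09, 2.01 and 2.20 times the counts of H2-K1, in the order Scr 1, Scr 2, miR-99 KD 1 and miR-99 KD 2. The ratio of B2m to H2-K1 counts was 1.55, 1.27, 1.55 and 2.07 in the same order, so miR-99 KD 2 stood highest while miR-99 KD 1 equalled Scr 1 within rounding. The ratio of B2m to H2-D1 counts was 0.686 and 0.607 in Scr against 0.770 and 0.943 for miR-99 KD. Per exon length, B2m over the sum of both heavy chains was 1.48 and 1.28 in Scr against 1.61 and 2.02 for miR-99 KD, so by these measures both miR-99 KD libraries lay above both Scr libraries.

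Values of Tap2 lay further apart between groups than those of Tap1, most of all in miR-99 KD 2. These transporter genes were not tested against each other. Tap2, which encodes a subunit of the peptide transporter, had 449 and 395 CPM in Scr, 295 CPM for miR-99 KD 1 and 88.4 CPM for miR-99 KD 2. Both miR-99 KD libraries lay below both Scr libraries, and they differed 3.34-fold from each other. Only 6 of 3372 genes with a mean of at least 80 CPM (0.178%), Tap2 among them, differed that much between the miR-99 KD libraries, a level chosen after the values were seen. The log2 fold change of Tap2 was −1.07 ± 0.60, with a 95% interval from −2.68 to 0.54 and an edgeR adjusted p of 0.698. Without miR-99 KD 2, which leaves 1 library in that group, it was −0.41, and without miR-99 KD 1 it was −2.15.

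Tap1, the other subunit, had 115 and 110 CPM in Scr, 115 CPM for miR-99 KD 1 and 82.2 CPM for miR-99 KD 2, so the groups overlapped. Its log2 fold change was −0.13 ± 0.23 (edgeR adjusted p 0.875), and without miR-99 KD 2 it was 0.14. The ratio of Tap2 to Tap1 counts was 3.91 and 3.60 in Scr, then 2.57 for miR-99 KD 1 and 1.07 for miR-99 KD 2. Psmb8, which lies between these genes, gave a similar picture, with a ratio of Tap2 to Psmb8 of 0.939 and 0.974 in Scr against 0.719 and 0.237 for miR-99 KD. Tap1 and Psmb9, which start from opposite sides of the same 225 bases, kept a ratio of 0.920 and 1.04 in Scr against 1.03 and 0.819 for miR-99 KD.

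**Figure D2:**
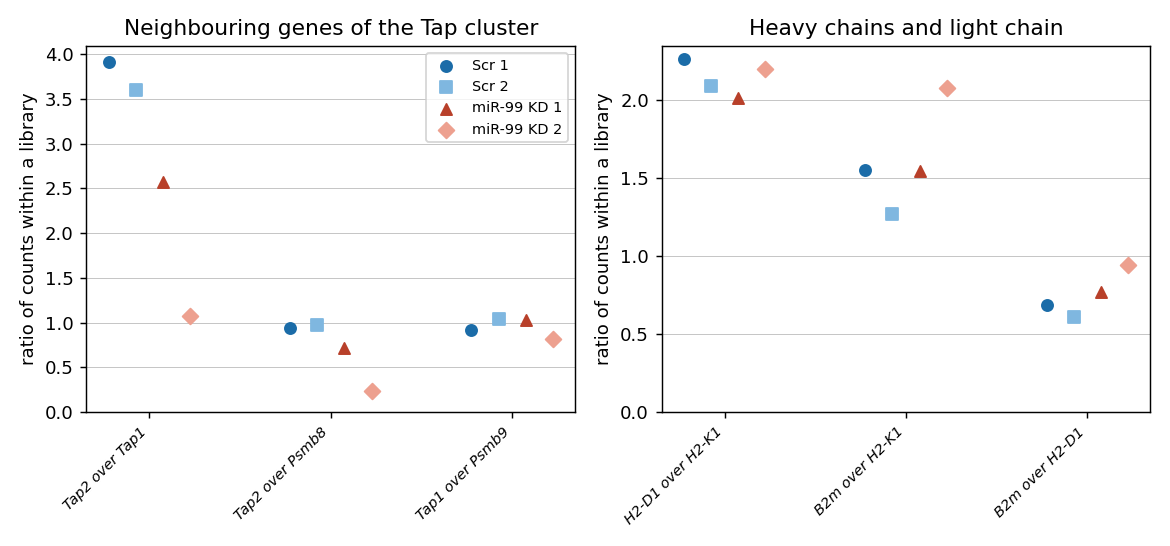
Ratios of raw counts of gene pairs within each library, on linear axes that start at 0, with a point for each of the 4 libraries. Tap2 over Tap1 runs from 3.91 in Scr 1 to 1.07 in miR-99 KD 2, while Tap1 over Psmb9 stays between 0.819 and 1.04.

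Genes within 100 kb of Tap2 with a very low mean CPM were left out. The others each differed by a smaller factor between the miR-99 KD libraries than Tap2 did. The class II chaperone gene H2-DMa had 159 and 143 CPM in Scr against 124 and 148 CPM for miR-99 KD, and H2-DMb1 had 77.0, 62.4, 61.0 and 58.1 CPM in the same order. Brd2, a chromatin reader, had 227, 356, 343 and 195 CPM, H2-Ob 29.6, 29.5, 18.4 and 22.5 CPM, and H2-Ab1 22.2, 29.9, 20.2 and 16.5 CPM. The antisense transcript Gm15821 within Tap2 had 3.77, 2.56, 1.97 and 0.658 CPM, and whether its reads come from Tap2 cannot be told without strand. Tapbp, the tapasin gene, had 490 and 421 CPM in Scr against 417 and 406 CPM for miR-99 KD. Its miR-99 KD values lay just below both Scr values, by less than the gap between the Scr libraries, and the edgeR fold was 0.940 (95% interval 0.726 to 1.22).

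Immunoproteasome genes were at similar levels in both groups. Psmb8 had 478 and 406 CPM in Scr against 411 and 373 CPM for miR-99 KD. Psmb9 had 125 and 105 CPM in Scr against 111 and 100 CPM for miR-99 KD. Psmb10 had 113 and 93.5 CPM in Scr against 94.2 and 121 CPM for miR-99 KD. The groups overlapped for each of these genes. Their edgeR folds were 0.924 (95% interval 0.700 to 1.22), 0.960 (0.710 to 1.30) and 1.09 (0.765 to 1.55), with adjusted p of 0.838, 0.921 and 0.861.

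Each immunosubunit replaces a constitutive subunit of the same activity, so its share of the pair was computed per exon length. Psmb8 made up 53.1% and 54.9% of the Psmb8 and Psmb5 pair in Scr against 53.1% and 47.8% for miR-99 KD. Psmb9 made up 24.1% and 24.8% of its pair with Psmb6 in Scr against 27.1% and 21.1% for miR-99 KD. These groups overlapped for Psmb9, and for Psmb8 miR-99 KD 1 lay between the Scr libraries. Psmb10 made up 67.8% and 67.9% of its pair with Psmb7 in Scr against 66.3% and 64.4% for miR-99 KD, so both miR-99 KD values were lower. The difference was −2.52 percentage points for Psmb10, with a two-sided exact permutation p of 0.333, the smallest that 2 against 2 libraries can give. For Psmb8 and Psmb9 the differences were −3.53 and −0.398 points, with exact permutation p of 0.667 and 1. Without miR-99 KD 2 the differences were −0.858 points for Psmb8, 2.59 for Psmb9 and −1.61 for Psmb10, and without miR-99 KD 1 they were −6.20, −3.38 and −3.43 points. The shares depend on the length used: with the longest transcript, Psmb8 made up 66.7%, 68.3%, 66.8% and 61.8% of its pair, in the order Scr 1, Scr 2, miR-99 KD 1 and miR-99 KD 2.

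**Figure D3:**
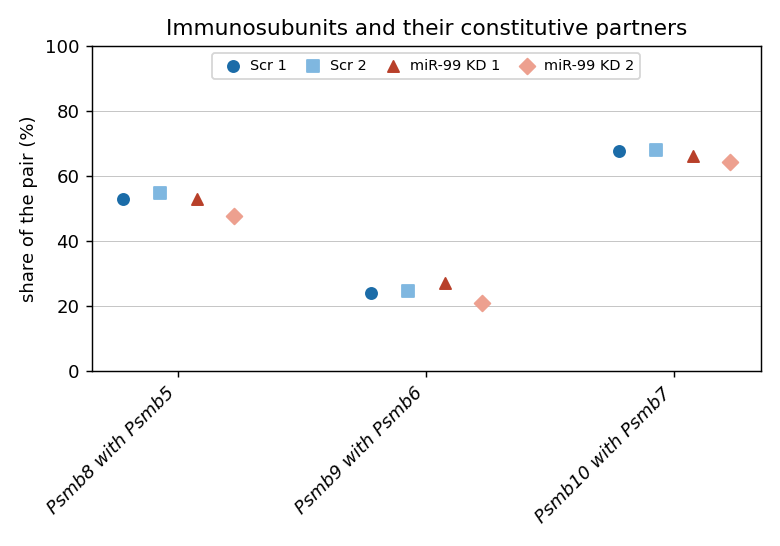
Share (%, of counts per exon length) of each immunosubunit in the pair it forms with its constitutive partner, with a point for each of the 4 libraries. Psmb10 lies at 67.8% and 67.9% in Scr and at 66.3% and 64.4% in miR-99 KD, and the groups overlap for the other pairs.

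The constitutive subunits themselves were also at similar levels. Psmb5 had 112 and 88.8 CPM in Scr against 96.5 and 108 CPM for miR-99 KD, Psmb6 had 201, 163, 154 and 192 CPM, and Psmb7 had 107, 88.6, 96.3 and 134 CPM. Scr 1 lay above Scr 2 for all 6 catalytic genes, and the groups overlapped for all 6. Among 7 proteasome activator and assembly genes, 5 were positive and 2 negative in log2 fold change, from −0.06 to 0.31. Without Scr 1, 6 were positive and 1 negative, with Psme2 going from −0.06 to 0.16 and Psme4 from 0.31 to 0.03. The activator subunit gene Psme1 had 226 and 179 CPM in Scr against 191 and 257 CPM for miR-99 KD. Psme3, another activator subunit gene, had 355, 380, 364 and 340 CPM in the order above, and the log2 fold change of the assembly chaperone gene Psmg2 was 0.18 ± 0.18 (edgeR adjusted p 0.788) and 0.31 without Scr 1.

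Nlrc5, the class I transactivator, had 86 and 115 counts in Scr against 285 and 137 counts for miR-99 KD, which is 2.24, 2.75, 6.68 and 3.22 CPM. Both miR-99 KD libraries lay above both Scr libraries, and the miR-99 KD libraries differed 2.07-fold from each other. The log2 fold change was 1.04 ± 0.46, with a 95% interval from −0.20 to 2.28 and an edgeR adjusted p of 0.659. Without miR-99 KD 1 it was 0.46, and without miR-99 KD 2 it was 1.52. The library with the most Nlrc5 was miR-99 KD 1. H2-K1 was nearly equal in miR-99 KD 1 and miR-99 KD 2 (459 and 455 CPM, with overlapping Poisson intervals), and H2-D1 was highest in miR-99 KD 2. Of the other heavy-chain genes past the filter, H2-Q4, H2-Q6, H2-Q7, H2-Q10, H2-T10 and H2-T24 peaked by CPM in the library with the most Nlrc5. H2-T22 and H2-M3 peaked in miR-99 KD 2, while H2-Q1, H2-T23 and H2-K2 peaked in Scr 1. Any relation of Nlrc5 to the heavy chains was not tested.

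In the edgeR quasi-likelihood fit over all 15591 genes, 0 of the 10 genes passed an adjusted p of 0.05, as did 0% of all genes. At an unadjusted p under 0.05 there was 1, B2m, against 7.89% of all genes (2.66% higher and 5.23% lower in miR-99 KD). DESeq2 called 0 of the 10, where it called 1.67% of all genes (0.725% higher and 0.949% lower). With limma-voom, 0 of the 10 were called, and 0 of all 15591 genes. Without Scr 1, edgeR called 0 of the 10 and 1.85% of all genes (0.993% higher and 0.855% lower). Of the 10, 5 were positive and 5 negative in log2 fold change, and their median of 0.03 stood beside −0.01 over all genes. Without Scr 1, 8 were positive and 2 negative, with a median of 0.14. The log2 fold changes of 7 of the 10 were below 0.25 in size, as were 45.1% of all genes and 60.2% of genes with at least 80 CPM. For these 7 the lowest end of a 95% interval of the fold was 0.598 (Tap1) and the highest was 1.55 (Psmb10). Each interval gives the folds that the data of its own gene allow. It does not give the size of change that 2 mice a group could detect. On TMM-scaled values the groups did not overlap in 6 of the 10 genes, with miR-99 KD above in 4 and below in 2, against 44.3% of all genes (18.9% above and 25.3% below). On plain CPM this held for 5 of the 10 and for 41% of all genes.

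**Figure D4:**
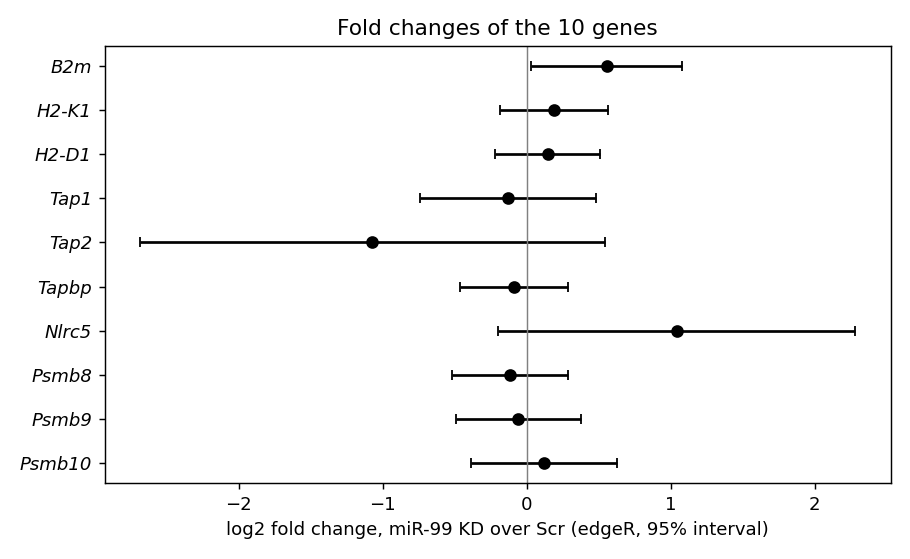
Log2 fold change of miR-99 KD over Scr for the 10 genes, from edgeR, with bars for the 95% interval. B2m (0.55) is the gene whose interval lies to the right of 0, and the widest interval is that of Tap2.

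Other class I heavy chains, most of them of the H2-Q and H2-T regions, included H2-Q6 and H2-Q7, which DESeq2 called. Of 16 such genes in the files, 11 passed the filter, of which 8 were positive and 3 negative in log2 fold change, and their median was 0.49 (10 and 1 without Scr 1). Genes that passed only through the group where they are high had to differ, so these counts are a description. H2-Q6 had 40 and 52 counts in Scr against 291 and 234 counts for miR-99 KD, or 1.04, 1.24, 6.82 and 5.50 CPM. H2-Q7 had 23 and 26 counts in Scr against 143 and 85 for miR-99 KD. Both genes encode Qa-2 antigens and lie on chromosome 17, at 35424850 to 35430055 and 35439155 to 35443773 (GRCm38), and for both the miR-99 KD libraries lay well above the Scr libraries.

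The log2 fold changes were 2.48 ± 0.31 for H2-Q6 and 2.18 ± 0.41 for H2-Q7, with edgeR adjusted p of 0.335 and 0.466. DESeq2 called both higher, with adjusted p of 3.92e-07 and 0.00713, where it called 0.725% of all genes higher. In edgeR without Scr 1, where the lone Scr library has to borrow the spread of the miR-99 KD pair, the adjusted p was 0.00852 for H2-Q6 and 0.0724 for H2-Q7. H2-Q6 and H2-Q7 are near-identical copies, so their counts rest on the few bases where they differ, and the split between them is uncertain. The more abundant H2-T23, which encodes the nonclassical heavy chain Qa-1, had 117 and 108 CPM in Scr against 107 and 102 CPM for miR-99 KD (log2 difference −0.05 ± 0.15, edgeR adjusted p 0.930, and 0.010 without Scr 1). H2-M3, shown above with its promoter site, had 11.0 and 10.1 CPM in Scr against 12.6 and 13.4 CPM for miR-99 KD (log2 difference 0.36 ± 0.20, edgeR adjusted p 0.698).

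**Figure D5:**
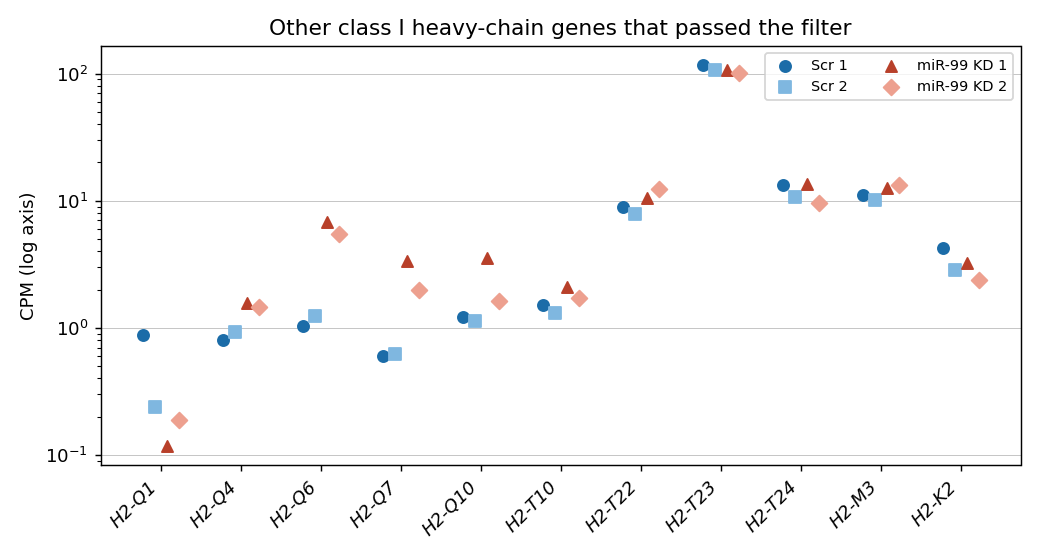
CPM (log axis) of the 11 other class I heavy-chain genes that passed the filter, with a point for each of the 4 libraries. H2-Q6 runs from 1.04 to 1.24 CPM in Scr and from 5.50 to 6.82 CPM in miR-99 KD, while H2-T23 stays between 102 and 117 CPM.

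Among 6 class I-like genes that passed the filter, 2 were positive and 4 negative in log2 fold change, and without Scr 1 this turned to 4 positive and 2 negative. Cd1d1, which presents lipids to NKT cells, had 83.1 and 83.0 CPM in Scr against 58.3 and 52.7 CPM for miR-99 KD. The groups were well separated, and the Scr libraries were almost equal. The log2 fold change was −0.53 ± 0.18 (edgeR adjusted p 0.613). Its lower copy Cd1d2 had 34 and 28 counts in Scr against 19 and 9 for miR-99 KD. Fcgrt, the neonatal Fc receptor heavy chain, had 19.5, 12.9, 9.98 and 20.9 CPM, with overlapping groups.

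Genes of folding, loading and trimming were abundant and close between groups. Of 12, 7 were positive and 5 negative in log2 fold change, from −0.29 to 0.49 (8 and 4 without Scr 1). Of these 12, edgeR called 0 and DESeq2 called 0, against 0% and 1.67% of all genes. At an unadjusted p under 0.05 in edgeR there were 0, against 7.89% of all genes. For a list of 12 genes these counts are near the shares over all genes. Calreticulin, the lectin chaperone of the loading complex (Calr), had 1957 and 1837 CPM in Scr against 1907 and 1917 CPM for miR-99 KD. The chaperone gene Hspa5 had 1335, 1104, 1257 and 1400 CPM in the order above. Npepps, a cytosolic aminopeptidase, had 41.5 CPM in Scr 1 and 70.2 to 78.7 CPM in the other libraries, so its difference lay with Scr 1.

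The factors that act on class I promoters went in both directions. Of 14 that passed the filter, 10 were positive and 4 negative in log2 fold change, with a median of 0.18. Without Scr 1, 8 were positive and 6 negative, as Rfxap turned from 0.58 to −0.15 and Relb from 0.02 to −0.16. Irf8, an interferon regulatory factor of myeloid cells, had 217 and 154 CPM in Scr against 284 and 446 CPM for miR-99 KD, with the highest value in miR-99 KD 2, as for B2m. Its log2 fold change was 1.04 ± 0.28 (edgeR adjusted p 0.580). Nfkb1, an NF-kB subunit gene, had 304 and 257 CPM in Scr against 218 and 191 CPM for miR-99 KD (log2 difference −0.40 ± 0.16, edgeR adjusted p 0.649).

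Interferon signalling genes showed no common direction, with 6 positive and 5 negative of 11, and 4 positive and 7 negative without Scr 1, where Jak2 (−0.41) and Socs1 (−0.26) turned negative. Ifngr1, the ligand-binding chain of the interferon gamma receptor, had 1148 and 1080 CPM in Scr against 940 and 1215 CPM for miR-99 KD. Tyk2, a kinase of interferon receptors, had 131 and 107 CPM in Scr, 106 CPM for miR-99 KD 1 and 54.4 CPM for miR-99 KD 2, low in the same library as Tap2. Ifnar2, a type I interferon receptor chain, had 140 and 155 CPM in Scr against 164 and 194 CPM for miR-99 KD (log2 difference 0.33 ± 0.19, edgeR adjusted p 0.700). The kinase gene Jak1 had 285, 426, 347 and 251 CPM in the same order, with overlapping groups.

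Receptors listed as readers of class I or class I-like molecules were few in these cells. Of 7 genes in the files 3 passed the filter. The paired receptor genes Pirb (46.2, 39.4, 35.5 and 53.3 CPM) and Pira2 (9.26, 7.57, 5.95 and 8.37 CPM) overlapped between groups. Klrk1, which encodes the activating receptor NKG2D, had 71 and 36 counts in Scr against 116 and 244 counts for miR-99 KD (log2 difference 1.71 ± 0.55, edgeR adjusted p 0.600). In edgeR without Scr 1 its log2 fold change was 2.36 with an adjusted p of 0.0164, in a fit that called 0.993% of all genes higher. Of 4 genes listed for class I retention and turnover that passed the filter, all 4 had a positive log2 fold change, from 0.29 to 0.70 (Sppl3). None passed the threshold in edgeR, as for 0% of all genes. Rab22a, the lowest of them, turned to −0.31 without Scr 1. Snx3, a sorting nexin, had 147, 168, 194 and 262 CPM, and the recycling GTPase gene Rab11a had 96.7, 89.9, 102 and 123 CPM.

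Marker lists of the sorted cells and of other cells were summed per library, and some of the sums moved with these values. The 15 granulocyte maturation genes summed to 6401 and 4311 CPM in Scr and to 11143 and 24518 CPM in miR-99 KD, highest in miR-99 KD 2, the library with the most B2m and the least Tap2. DESeq2 called 7 of these 15 genes higher and 0 lower, against 0.725% and 0.949% of all genes, and edgeR called 0 of them and 0% of all genes. The part of the granulocyte maturation genes in the results for B2m and Tap2 was not tested. The 13 markers of class II and dendritic cells summed to 446 and 543 CPM in Scr against 311 and 428 CPM for miR-99 KD. Most of that sum came from Flt3 and H2-DMa. The dendritic cell gene Clec9a had 0 counts in 3 libraries, and Cd74, the invariant chain, had 1.61 to 5.67 CPM. Of 11 T and NK cell markers 9 were under 1 CPM in every library, among them Cd3e, Cd3g and Ncr1, and the sum of 114 to 167 CPM was nearly all from Nkg7. Among B cell markers, Pax5 had 0 counts in 3 libraries, and the sum over the list (131 to 194 CPM in Scr and 214 to 307 CPM in miR-99 KD) came mostly from Ighm and Cd79b. The 10 stroma and endothelium markers summed to 613 and 548 CPM in Scr against 353 and 278 CPM for miR-99 KD, mostly from Vcam1 and Pecam1, with Cdh5 at 0 counts in both miR-99 KD libraries. The 12 monocyte and macrophage markers summed to 1987 and 1822 CPM in Scr against 1993 and 3286 CPM for miR-99 KD, with most of the sum from Ly6c2 (1378, 1356, 1521 and 2711 CPM in the order Scr 1, Scr 2, miR-99 KD 1 and miR-99 KD 2). Of the 11 of these that passed the filter, 4 were positive and 7 negative, with a median log2 fold change of −0.30, and without Scr 1 this turned to 6 and 5, with a median of 0.05. The 8 erythroid markers summed to 71.5, 95.4, 42.2 and 106 CPM in that order, mostly from the globin genes Hba-a1 and Hbb-bs. Of the 7 erythroid markers that passed the filter 2 were positive and 5 negative, with a median of −1.60. Of these, edgeR called 0 lower, against 0% of all genes, and DESeq2 called 1 lower, against 0.949% of all genes. Slc4a1, the red cell anion exchanger, had 5.88 and 17.4 CPM in Scr against 0.937 and 2.00 CPM for miR-99 KD. The 6 progenitor and gate genes summed to 1908, 1746, 1455 and 1409 CPM in the same order. Of the 5 that passed the filter, 2 were positive and 3 negative in log2 fold change. Kit (453, 424, 298 and 232 CPM), Hoxa9 (301, 351, 169 and 165 CPM) and Meis1 (359, 319, 231 and 196 CPM) were the lower ones. Cd34 (358, 283, 345 and 334 CPM) and Fcgr3 (437, 370, 413 and 482 CPM) overlapped between groups on plain CPM.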

How the data were processed

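Raw read counts per Ensembl gene identifier were analysed for 4 libraries, 2 per group, grouped by their titles. The deposited counts are whole numbers with a different total in each library. Per the submitters' processing notes, the authors used STAR, Picard, HTSeq and DESeq2 (no versions, roles or order given) and the build mm9. The sources used here give neither the annotation release nor the strand setting. Per the labels' protocols, cells were lysed in Trizol LS, and the SMARTer method amplified the RNA for sequencing. The 5 categories that name no gene, 43.7% to 49.7% of entries, stayed out of library sizes and tests. Symbols were matched for 44585 of 45232 identifiers. Lengths and coordinates come from the M21 release of GENCODE (GRCm38) by identifier, and sequences from RefSeq on GRCm38.p6. No coordinate was converted from mm9.

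CPM is counts scaled to the library's gene total, and RPKM divides CPM by the union of exons in kilobases. Depth ranged from 38458519 to 42674407 counts. Intervals and the floor of 3 counts cover counting error only, since reads here lack molecular identifiers. Differences were tested across all genes by the quasi-likelihood method of edgeR (edgeR 4.0.16, R 4.3.3), two-sided, with TMM factors (0.969 to 1.07), low genes removed at a minimum count of 10, and p adjusted by Benjamini-Hochberg over 15591 genes at a threshold of 0.05. Standard errors were derived from the test statistic, and 95% intervals used 4.41 degrees of freedom. Shares within catalytic pairs were compared by an exact permutation test over libraries. The scripts were tested on simulated data. Alternatives were DESeq2 1.42.0, limma-voom (limma 3.58.1), DESeq2 size factors, other filters, the replicate number as a block and leaving out each library.

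The genes and lists were chosen with earlier results of these data known. All 10 genes were named. From each further list, the rule took genes past the threshold, otherwise the 2 with the smallest p, and the 2 with the highest mean CPM. Genes named beyond it (the neighbours of Tap2, the genes of the closing observations and the markers) were chosen after their values were seen. H2-L and Lilrb4a were not analysed here. Single genes withheld for evaluation are not reported here.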

Additional observations from a re-analysis of the deposited data

How the results depend on the processing

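Across 12 alternatives and 10 genes, 110 of 120 log2 fold changes kept their direction, and none of the 120 passed the threshold. Several alternatives, among them limma-voom, the stricter filter and the replicate block, called 0 of all genes. The lack of calls there says nothing particular to the 10 genes. The exceptions to the kept direction were close to 0: without Scr 1, Tapbp (0.021), Psmb8 (0.0043) and Psmb9 (0.064) turned positive. The same genes did so in DESeq2 without Scr 1 (0.026, 0.0090 and 0.069). Without miR-99 KD 2, Tap1 (0.14), Psmb8 (0.0034) and Psmb9 (0.062) turned positive and Psmb10 negative (−0.022). Over the edgeR fits that left out 1 library each, log2 fold changes ran from −0.35 to 0.14 for Tap1, from −0.077 to 0.021 for Tapbp, from −0.14 to 0.0043 for Psmb8, from −0.093 to 0.064 for Psmb9 and from −0.022 to 0.34 for Psmb10. Share differences ran from −6.20 to −0.858 percentage points for Psmb8, from −3.38 to 2.59 for Psmb9 and from −3.43 to −1.61 for Psmb10. The median of the 10 genes was 0.03 to 0.14 in these fits and 0.14 in DESeq2 without Scr 1. Genes called numbered 0 in the main test, 9 without a filter on low counts, 261 in DESeq2, 0 to 294 when 1 library was left out (294 without Scr 1) and 139 in DESeq2 without Scr 1. With the replicate number as a block, 0 genes were called and the median of the 10 genes was 0.03. Deviations of same-numbered libraries correlated at −0.428, and a block with crossed numbers called 28 genes, 0 of them among the 10. Both this block and DESeq2 without Scr 1 were chosen after seeing the data. The cause of these changes was not tested. Each mouse had 1 library, so the spread between mice and that between libraries cannot be told apart.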

Other observations

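Some other genes with at least 80 CPM differed between the miR-99 KD libraries as much as Tap2. The nuclear envelope gene Sun2 had 33.8, 124, 158 and 23.02 CPM in the order Scr 1, Scr 2, miR-99 KD 1 and miR-99 KD 2. The receptor gene Pdgfrb had 133 and 142 CPM in Scr against 88.6 and 19.9 CPM for miR-99 KD. The unconventional myosin gene Myo7a had 286 and 270 CPM in Scr against 184 and 54.9 CPM for miR-99 KD. Pdgfrb and Myo7a share with Tap2 the order of the libraries between the groups, with both Scr values above both miR-99 KD values. On TMM-scaled values that order held for 25.3% of all genes, so it is common. The granule gene Ngp had 441 and 146 CPM in Scr against 1358 and 4821 CPM for miR-99 KD, high in the library where Sun2, Pdgfrb and Myo7a were low. These genes were chosen after their values were seen, and no relation among them was tested.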
